A study of Mus musculus with 6 samples.

Results

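The constitutive proteasome genes are the genes for the standing subunits, regulators and assembly factors of the proteasome, the protease complex that degrades ubiquitin-tagged proteins. The set was a list of 39 genes, each taken as the mean log2 signal of the probe sets whose only annotated symbol was that gene. All 39 had such a probe set, among 22180 genes measured in this way. All 39 also reached the floor of 5.06, the median of all values, on at least 1 array, as did 13652 genes in all. The genes were placed by the known position of their products: 6 in the alpha ring, 7 in the beta ring, 6 among the ATPases of the base, 3 in the non-ATPase part of the base, 8 in the lid, 3 as activators or the regulator PI31, 3 as chaperones of base assembly and 3 as assembly factors of the core particle.

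The 6 samples were cultures of C2C12, a mouse myoblast line that fuses into myotubes when serum is lowered, with 1 Affymetrix whole-transcript array each. In growth medium, DMEM with 10% fetal bovine serum, the 3 cultures were untreated, treated with TNF-α at 50 ng/ml for 24 h, or treated with BTZ at 10 nM for 24 h. The 3 others were moved to 2% differentiation medium and harvested on day 5, untreated or with TNF-α at 50 ng/ml or BTZ at 10 nM added on day 4. No genotype or transgene is given for the line, and BTZ is not written out in the labels; it is the common short form of bortezomib, which inhibits the catalytic beta subunits. Since each group was 1 array, a difference between 2 arrays has no error and no p-value.

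The proteasome has a barrel-shaped core particle of stacked rings, in which alpha subunits form the gate and beta subunits the proteolytic chamber. A regulatory particle caps the barrel: its base holds the ATPases that unfold substrates, and its lid removes the ubiquitin chain. The rings and the base are put together by dedicated chaperones. When the proteasome is inhibited, mammalian cells are known to raise transcription of its subunits through the factor NRF1 (Nfe2l1), and in muscle the proteasome is known for the breakdown of contractile proteins during wasting.

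The array medians lay between 5.01 and 5.11. The labelled cell type was checked against markers. The 6 myoblast markers had mean signals between 8.20 and 10.41 on the 6 arrays. Their mean was 9.13 in untreated growth medium and 10.41 in untreated differentiation medium. There 4 of them were at least 2-fold higher than in growth medium, and only Myf5 was lower, at -0.91. This list thus did not mark myoblasts against myotubes here. The mean of the 10 myotube markers was 4.95 to 5.35 in growth medium, 9.92 and 9.52 in the untreated and TNF-α cultures of differentiation medium and 7.42 with BTZ there. The 6 endothelial markers, 5 of 7 immune markers and 3 of 6 adipocyte markers were under the floor on every array. Cd68, one of the 2 immune markers above it, had 6.57 and 7.74 without and with BTZ in growth medium and 5.63 and 6.24 in differentiation medium. The 9 mitotic genes measured had a mean signal of 9.67 in untreated growth medium and 7.05 with BTZ, and of 6.43 and 4.98 in differentiation medium.

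Each BTZ array was compared with its untreated partner to ask how the proteasome genes stood in treated myoblasts and myotubes. Most of them were higher with BTZ in both media. In growth medium the median log2 difference of the 39 genes was 0.86, with 9 at least 2-fold higher and 0 lower. In differentiation medium the median was 1.14, with 25 at least 2-fold higher and 0 lower. Over all genes above the floor the medians were 0.02 and 0.00. Of these, 4.99% and 6.05% passed 2-fold upwards and 6.16% and 8.91% downwards. In the set, 7 genes were past 2-fold upwards in each medium, against 2.71% of all genes, and 12 were under 2-fold in both. At a threshold of 1.5-fold, 28 of the 39 were higher and 1 lower with BTZ in growth medium, against 14.7% and 13.7% of all genes.

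For 33 of the 39 genes, both BTZ arrays lay above the 4 other arrays, an order seen in 21.2% of all genes. An additive fit of medium and treatment was made to all 6 arrays (limma with Benjamini-Hochberg adjustment over 13652 genes). In it 28 of the 39 rose with BTZ at an adjusted p under 0.05 and 0 fell, and over all genes 7.31% rose and 6.85% fell. Below, genes said to rise, fall or pass are those called in this fit, and for BTZ these shares are the background of each count. The 33 and the 28 include Psma5, which reached the floor only on the BTZ arrays, as do the 25 at least 2-fold higher in differentiation medium. The spread in this fit is how far the treatment differences depart from each other between media, on 2 residual degrees of freedom, and not a spread between replicate cultures. Without the untreated array of growth medium, or without that of differentiation medium, 0 of the 39 and 0 of all genes were called higher; without any 1 of the 4 other arrays between 20 and 33 of the 39 were. On these bulk arrays a change in how many cells carry a transcript and in how much each cell carries cannot be told apart. The muscle and dividing-cell markers moved with BTZ as well, 8 of 9 mitotic genes and 2 of 6 myoblast markers falling in the same fit. Of the 10 myotube markers 0 passed (3 had an unadjusted p under 0.05), while 9 were at least 2-fold lower with BTZ in differentiation medium. Cd68 rose. Their part in the proteasome values was not tested.

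**Figure D1:**
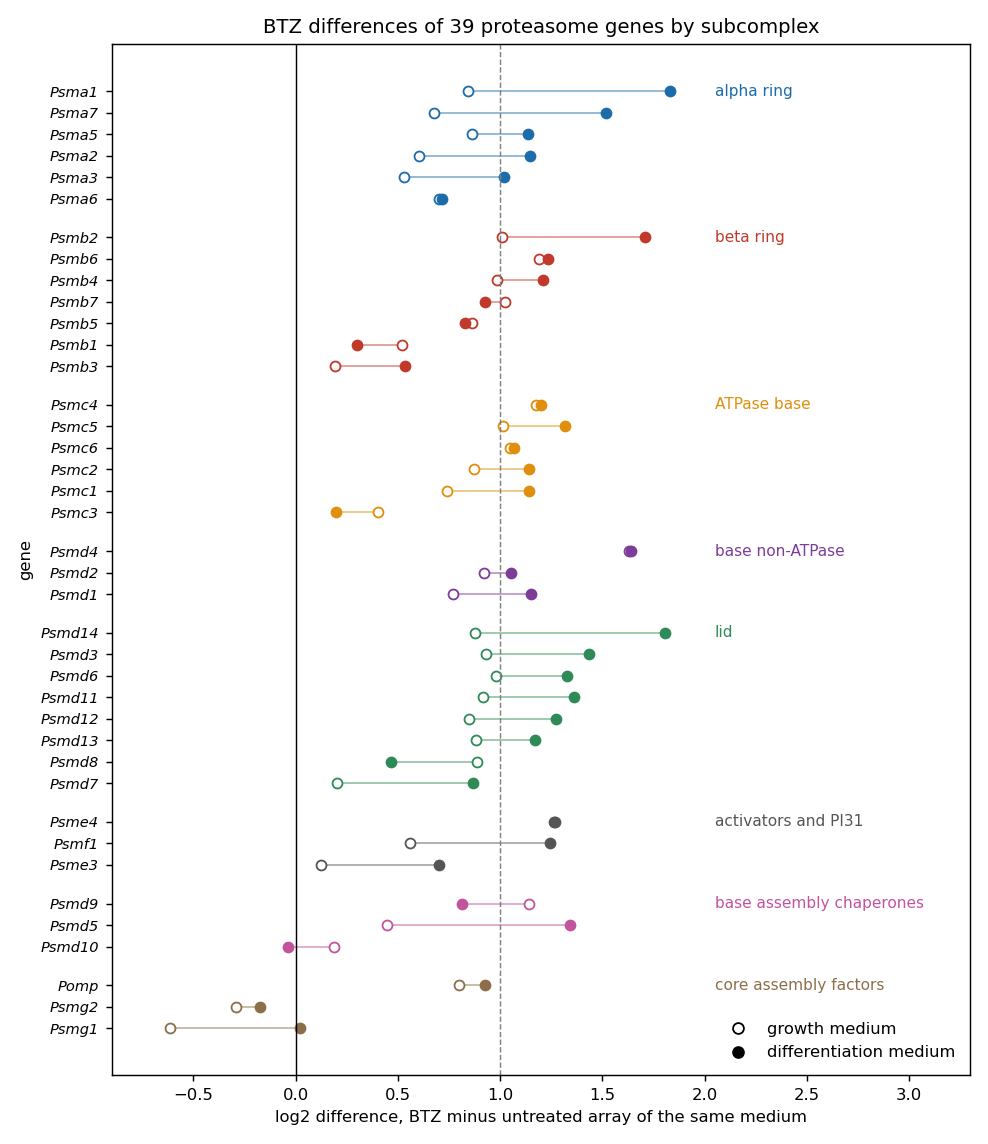
Log2 difference between the BTZ and untreated arrays of a medium for each of the 39 genes, grouped by the part of the proteasome. Open points are growth medium, filled points differentiation medium, each a difference of 2 single arrays, and the dashed line marks 2-fold. Most points lie between 0.5 and 1.5, while Psmd10, Psmg1 and Psmg2 lie near or below 0.

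All 6 alpha ring genes, which encode the gate of the core particle, were higher with BTZ in both media. In the limma fit 5 of them passed, against 7.31% of all genes. The medians were 0.69 in growth medium and 1.14 in differentiation medium, with 0 and 5 genes at least 2-fold higher. Psma1 had log2 signals of 8.95, 9.12 and 9.79 in growth medium (untreated, TNF-α, BTZ) and 7.96, 8.19 and 9.79 in differentiation medium. The BTZ arrays were its highest and equal to the second decimal, although the untreated arrays stood 0.99 apart. Its fitted BTZ effect was 1.34 ± 0.28 (SE, limma adjusted p = 0.0338). Psma6 was the ring's smallest, with differences of 0.70 and 0.71 and an adjusted p of 0.0625 in the same limma fit. Psma5 lay under the floor on the 4 arrays without BTZ, at 3.63 to 4.31, and reached it only with BTZ, at 5.17 and 5.25. It is counted among the 5 that passed (limma adjusted p = 0.0444) and the 5 at least 2-fold higher, which rest on these low signals. Its 2 probe sets disagreed: one gave BTZ differences of 1.64 and 1.83, the other 0.09 and 0.45.

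All 7 beta ring genes were higher with BTZ in both media, and 5 passed in the limma fit. The medians were 0.99 and 0.93, and in each medium 3 genes were at least 2-fold higher. The catalytic subunits moved by nearly the same amount in both media. Psmb5, the chymotrypsin-like subunit that is the main target of bortezomib, had signals of 8.86, 9.20 and 9.73 in growth medium and 8.92, 9.00 and 9.74 in differentiation medium (untreated, TNF-α, BTZ). Its BTZ differences were thus 0.86 and 0.83. Psmb6, the caspase-like subunit, had differences of 1.19 and 1.23 from signals of 9.32 and 9.18 on the untreated arrays. Psmb7, the trypsin-like subunit, had 1.02 and 0.93. The limma effects were 0.84 ± 0.16 for Psmb5 (adjusted p = 0.0287), 1.21 ± 0.15 for Psmb6 (0.0139) and 0.97 ± 0.14 for Psmb7 (0.0166), each with its SE. Of the non-catalytic subunits, Psmb2 had the ring's largest effect at 1.36 ± 0.24 (SE, limma adjusted p = 0.0241), with differences of 1.01 in growth and 1.71 in differentiation medium. Psmb1 and Psmb3 did not pass, with differences of 0.52 and 0.30 for Psmb1 and 0.19 and 0.53 for Psmb3.

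The 6 ATPases of the base, which pull substrates into the core, were all higher with BTZ in both media, with medians of 0.94 and 1.14. In the limma fit 5 of them passed. Psmc4 led with signals of 9.56, 9.71 and 10.74 in growth medium and 9.50, 9.42 and 10.70 in differentiation medium (untreated, TNF-α, BTZ). The 4 arrays without BTZ lay close together, and both BTZ arrays stood about 1 log2 unit above them. Its limma effect was 1.19 ± 0.15 (SE, adjusted p = 0.0147). Psmc2 had 2 probe sets that moved alike, with BTZ differences of 0.70 and 1.05 from one and 1.04 and 1.23 from the other. Psmc3 was apart from its 5 partners in the ATPase ring, with differences of 0.40 and 0.20 and a limma adjusted p of 0.321.

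All 3 non-ATPase subunits of the base rose. Psmd4, which binds ubiquitin chains, had the largest BTZ effect of the 39 genes, 1.64 ± 0.16 (SE, limma adjusted p = 0.0104). Its signals were 8.63, 8.58 and 10.26 in growth medium and 8.70, 8.55 and 10.35 in differentiation medium (untreated, TNF-α, BTZ). The BTZ arrays were the only 2 above 9, and the differences of 1.63 and 1.64 hardly depended on medium. The scaffold subunits Psmd2 and Psmd1 had differences of 0.92 and 1.05, and of 0.77 and 1.15.

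In the lid all 8 genes of the set were higher with BTZ in both media, and 7 passed in the limma fit. The medians were 0.88 in growth medium and 1.30 in differentiation medium. No lid gene reached 2-fold in growth medium and 6 did in differentiation medium. Psmd14, the deubiquitinase of the lid, had signals of 8.46, 8.63 and 9.34 in growth medium and 7.69, 7.90 and 9.50 in differentiation medium (untreated, TNF-α, BTZ). Its difference was 0.88 in the first and 1.81 in the second, with a limma effect of 1.34 ± 0.27 (SE, adjusted p = 0.0314). Psmd7, the inactive partner of Psmd14, had 0.20 and 0.87 and did not pass (limma adjusted p = 0.206). Psmd8 was the one of the 8 with a smaller difference in differentiation medium, 0.46 against 0.89. The small lid subunit Sem1, which was not in the set, had -0.08 in growth and 0.08 in differentiation medium.

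The factors that bind or build the proteasome were less uniform. Of these 9 genes 7 were higher with BTZ in each medium, and 3 passed in the limma fit. Their BTZ differences ranged from -0.61 to 1.26 in growth medium and from -0.18 to 1.34 in differentiation medium. The 30 ring, base and lid genes ranged from 0.19 to 1.63 and from 0.20 to 1.83. The standard deviation across genes was 0.62 and 0.60 for the 9, and 0.29 and 0.40 for the 30. Psme4, the activator PA200, rose by 1.27 ± 0.14 (SE, limma adjusted p = 0.012), with 9.35, 9.34 and 10.61 in growth medium and 9.62, 9.56 and 10.89 in differentiation medium (untreated, TNF-α, BTZ). Psme3, the nuclear activator PA28γ, had differences of 0.12 and 0.70, and Psmf1, which encodes PI31, had 0.56 and 1.24. Neither passed, with limma adjusted p-values of 0.28 and 0.0582.

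Among the chaperones of base assembly, Psmd9 rose by 0.98 ± 0.19 (SE, limma adjusted p = 0.0299). Psmd5 had 0.45 and 1.34 and did not pass at 0.0827. Psmd10, known as gankyrin, had signals of 7.94 and 8.13 without and with BTZ in growth medium and 7.95 and 7.92 in differentiation medium. The differences of 0.19 and -0.04 had opposite signs, and the limma adjusted p was 0.808.

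Of the core assembly factors, Pomp, which matures the beta ring, rose by 0.86 ± 0.15 (SE, limma adjusted p = 0.024). Psmg1, a chaperone of the alpha ring, had signals of 7.44, 7.99 and 6.83 in growth medium and 6.86, 7.05 and 6.88 in differentiation medium (untreated, TNF-α, BTZ). The BTZ array was its lowest in growth medium, 0.61 below the untreated one, and lay between the 2 others in differentiation medium, 0.02 above the untreated one. Its partner Psmg2 had differences of -0.29 and -0.18, with probe sets at -0.69 and -0.41, and at 0.11 and 0.05, the latter under the floor throughout. The limma adjusted p was 0.508 for Psmg1 and 0.422 for Psmg2. Psmg3 and Psmg4, which form the other chaperone pair of the alpha ring and were not in the set, had -0.09 and -0.14, and -0.20 and -0.13.

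**Figure D2:**
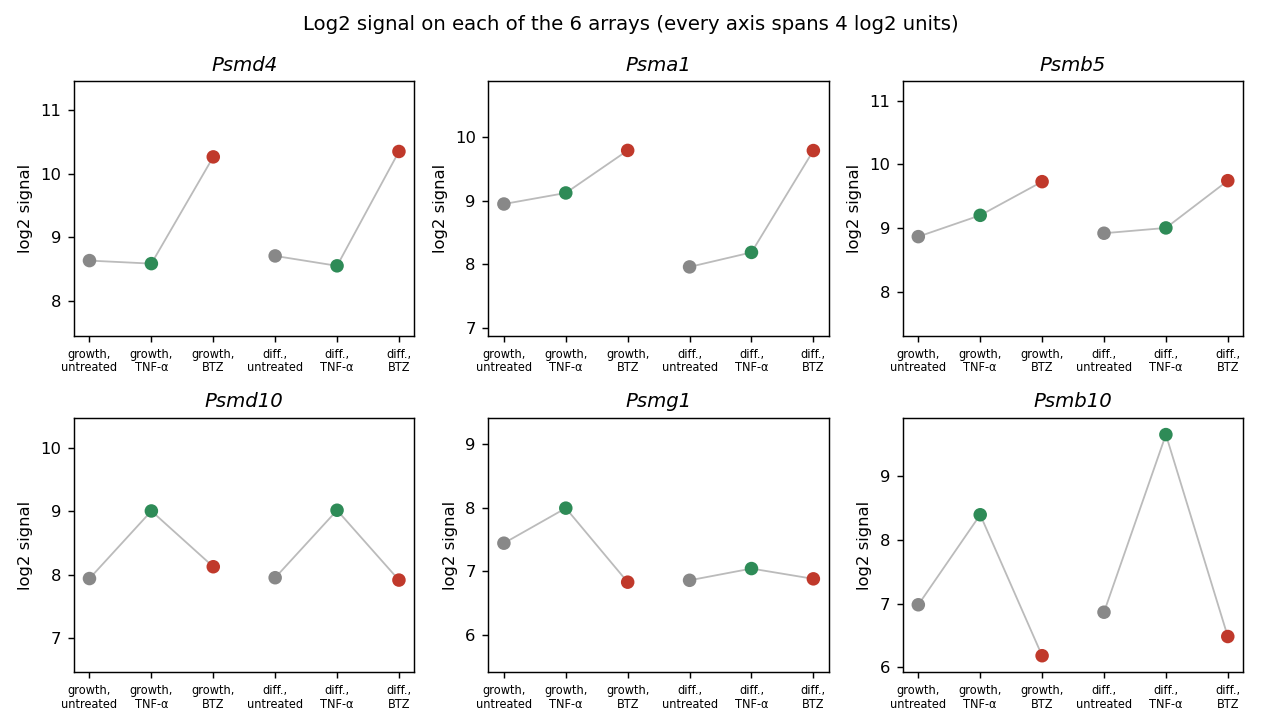
Log2 signal on each of the 6 single arrays for 5 genes of the set and for Psmb10, an inducible subunit; every vertical axis spans 4 log2 units, and lines join the arrays of one medium. Psmd4, Psma1 and Psmb5 are highest on the BTZ arrays, Psmd10 and Psmb10 on the TNF-α arrays, and Psmg1 on the TNF-α array of each medium.

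Of the 39 genes, 32 were in the table of RefSeq promoters used here (GRCm38.p6), each window running from 250 bases before to 50 after the gene's start. Among these 32, the promoters of the 3 genes with the highest mean BTZ difference, of the 2 with the lowest and of Psmb5 are shown, 5′ to 3′, because these genes span the range of BTZ differences. Capitals mark matches to TGACNNNGC, the core of the antioxidant response element that NRF1 and NRF2 bind, or to CCAAT, the box of the factor NF-Y, on either strand.
Psmd4 promoter, chr3:95042565-95042864, minus strand: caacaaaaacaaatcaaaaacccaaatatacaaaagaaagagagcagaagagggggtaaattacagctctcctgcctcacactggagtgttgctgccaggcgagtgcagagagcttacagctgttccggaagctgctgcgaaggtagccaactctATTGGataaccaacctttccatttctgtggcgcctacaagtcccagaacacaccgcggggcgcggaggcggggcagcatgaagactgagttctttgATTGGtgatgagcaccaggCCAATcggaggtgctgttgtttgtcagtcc
Psmd14 promoter, chr2:61711444-61711743, plus strand: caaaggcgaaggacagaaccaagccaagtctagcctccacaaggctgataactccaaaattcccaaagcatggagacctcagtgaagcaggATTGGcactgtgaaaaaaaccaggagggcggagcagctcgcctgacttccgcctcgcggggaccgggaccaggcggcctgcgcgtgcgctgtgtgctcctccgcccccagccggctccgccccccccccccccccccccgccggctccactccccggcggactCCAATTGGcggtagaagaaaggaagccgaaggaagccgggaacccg
Psma1 promoter, chr7:114276067-114276366, minus strand: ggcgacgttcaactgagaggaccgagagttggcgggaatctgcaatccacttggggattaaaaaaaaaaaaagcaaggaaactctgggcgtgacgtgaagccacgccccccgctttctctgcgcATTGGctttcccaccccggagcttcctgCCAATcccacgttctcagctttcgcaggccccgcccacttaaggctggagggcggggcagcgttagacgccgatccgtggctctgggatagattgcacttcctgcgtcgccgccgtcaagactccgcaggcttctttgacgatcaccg
Psmb5 promoter, chr14:54617946-54618245, minus strand: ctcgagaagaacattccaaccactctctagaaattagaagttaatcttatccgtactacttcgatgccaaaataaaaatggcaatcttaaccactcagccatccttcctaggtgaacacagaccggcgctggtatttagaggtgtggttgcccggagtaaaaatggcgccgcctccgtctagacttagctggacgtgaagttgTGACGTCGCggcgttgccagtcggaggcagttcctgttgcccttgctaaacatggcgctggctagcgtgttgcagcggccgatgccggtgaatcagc
Psmd10 promoter, chrX:140956662-140956961, minus strand: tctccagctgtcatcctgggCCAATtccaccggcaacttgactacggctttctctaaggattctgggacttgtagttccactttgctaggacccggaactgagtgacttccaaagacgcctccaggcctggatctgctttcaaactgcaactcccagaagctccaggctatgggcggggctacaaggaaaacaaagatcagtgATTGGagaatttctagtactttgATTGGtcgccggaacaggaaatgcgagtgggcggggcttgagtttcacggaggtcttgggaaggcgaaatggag
Psmg1 promoter, chr16:95990911-95991210, minus strand: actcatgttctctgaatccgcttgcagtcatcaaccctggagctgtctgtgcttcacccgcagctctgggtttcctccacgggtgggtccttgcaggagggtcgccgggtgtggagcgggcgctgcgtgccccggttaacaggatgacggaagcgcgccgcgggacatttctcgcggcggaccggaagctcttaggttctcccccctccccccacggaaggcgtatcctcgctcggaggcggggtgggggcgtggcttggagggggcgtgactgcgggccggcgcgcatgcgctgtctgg

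The capitals in Psmb5 are its 1 match to the element core, which begins at position -47 from the gene's start. Those in Psmd4 (3 matches), Psmd14 (3, of which 2 overlap), Psma1 (2) and Psmd10 (3) are CCAAT boxes, and Psmg1 had neither motif. In all, 6 of the 32 genes had the element core (18.8%, against 16.4% of genes above the floor; by window 17.6% of 34, against 12.4% of all 32851): Psme4, Psmb6, Psmd12, Psmc6, Psmd9 and Psmb5. Their mean BTZ differences ran from 0.84 to 1.27 with a median of 1.06. The 26 without it ran from -0.29 to 1.64 with a median of 0.97. CCAAT was in 12 of 32 (37.5%, against 41.9% of genes above the floor and 41.1% of all genes). The heat shock element, searched on both strands as GAA, TTC and GAA with 2 bases between neighbours, was in 0 of 32, against 0.554% and 0.662% of these genes. These shares are close to those of other genes, and a match in letters does not show a bound site.

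The BTZ difference itself was larger in differentiation than in growth medium for 32 of the 39 genes, against 48.4% of all genes. The median difference of differences was 0.29, against -0.02 over all genes. With 1 array per group this had no test. Psma1 (0.99), Psmd14 (0.93) and Psmd5 (0.90) leaned most towards differentiation medium. By subcomplex the median was 0.52 in the alpha ring, 0.43 in the lid, 0.15 in the ATPases and 0.05 in the beta ring. The rest of the base and the core assembly factors each had 0.13. Activators and PI31 had the highest median, 0.58, and the base chaperones the lowest, -0.22, each over 3 genes. Across the 39 genes, BTZ differences in growth and differentiation medium, which share no array, had a Pearson correlation of 0.70, and across all genes above the floor one of 0.66; genes of an array share its hybridization and are not independent.

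The levels reached with BTZ were close in the 2 media, a comparison chosen after its values were seen. Over the 39 genes the median size of the difference between media was 0.26 on the untreated arrays and 0.09 on the BTZ arrays, against 0.28 and 0.23 over all genes above the floor. The BTZ gap was smaller than the untreated gap for 28 of 39 genes, and for 57.4% of all genes. With signs kept, a gene's BTZ gap minus its untreated gap equals the difference of BTZ differences given above, on the same arrays. The larger BTZ differences, the close BTZ levels and the lower untreated values in differentiation medium are thus not independent results. Psma1, Psmd14 and Psmd5, named above for the largest differences of differences, were lower in untreated differentiation medium by 0.99, 0.77 and 0.72. Their BTZ arrays differed between media by 0.00, 0.16 and 0.17 in size. Psmd8 stood 0.42 higher in untreated differentiation medium and differed by 0.00 with BTZ. Psmf1 was the exception in size, at -0.08 untreated and 0.61 with BTZ.

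**Figure D3:**
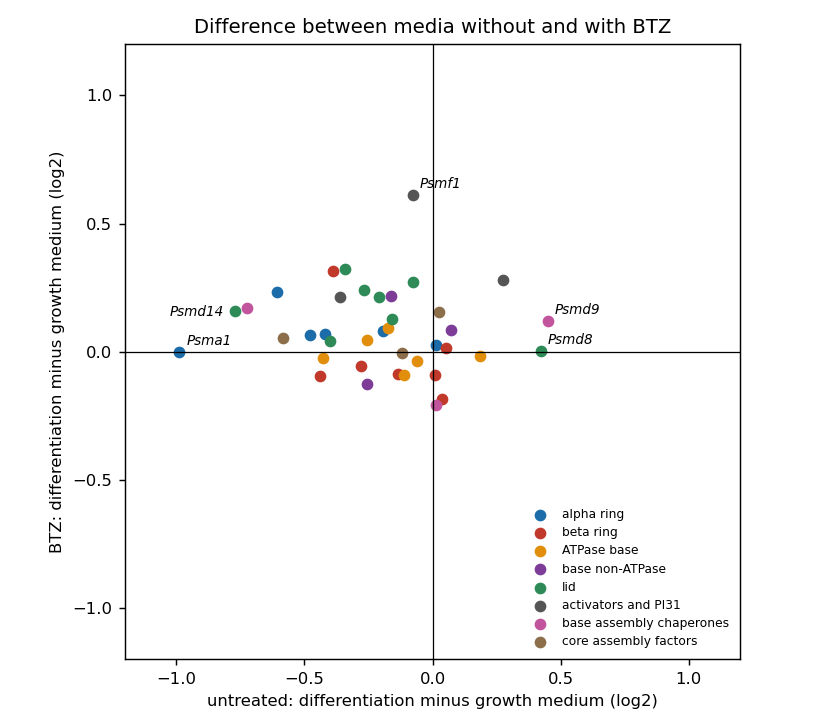
Each point is 1 of the 39 genes: the horizontal axis is its log2 difference between differentiation and growth medium on the untreated arrays, the vertical axis the same on the BTZ arrays, with equal scales and single arrays throughout. Horizontal positions run from -0.99 to 0.45, while most vertical positions lie within 0.3 of 0; Psmf1 is highest at 0.61.

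The 2 untreated arrays address how proteasome genes stood after 5 days in differentiation medium. The set lay slightly lower there, with a median of -0.17 against 0.01 over all genes. In the set 28 of 39 genes were below 0, as were 6644 of 13652 in all. No gene of the set was 2-fold apart in either direction, where 4.83% of all genes were past 2-fold upwards and 3.92% downwards; at 1.5-fold 4 genes of the set were lower, against 9.89%. The alpha ring had the lowest median, -0.45, with Psma1 at -0.99, Psma7 at -0.61, Psma2 at -0.48 and Psma3 at -0.42. The lid had -0.24, the rest of the base -0.16, the ATPases -0.14 and the beta ring -0.13. The core assembly factors had -0.12, activators and PI31 -0.08 and the base chaperones 0.01. Psmd9 (0.45), Psmd8 (0.42) and Psme4 (0.27) were the highest, and Psmb5 (0.05), Pomp (0.03), Psmb7 (0.01) and Psmd10 (0.01) were nearly level. In limma's medium effect 0 of 39 passed an adjusted p of 0.05, and 1 had an unadjusted p under 0.05; 1.56% of all genes rose and 2.47% fell. Without the BTZ array of growth medium, or without that of differentiation medium, 11 of the 39 were called lower, as were 11.5% and 11.6% of all genes in those fits.

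Each TNF-α array was likewise compared with its untreated partner to ask whether this cytokine, which drives NF-kB and is tied to muscle wasting, went with more proteasome transcripts. The differences were small. In growth medium the median was 0.19, with 36 of 39 genes above 0 (92.3%). In differentiation medium it was 0.07, with 22 above 0 (56.4%). Over all genes the medians were 0.03 and 0.01, and 53.8% and 51.0% of genes were above 0. The set's share in differentiation medium was thus near that of all genes. The set's medians stayed above 0 under every scaling tried, between 0.14 and 0.25 and between 0.03 and 0.11. The medians of all genes moved with the same scalings, between 0.01 and 0.09 and between -0.02 and 0.06. By part, the growth medium medians were 0.19 in the alpha ring, 0.13 in the beta ring, 0.18 in the ATPases, 0.10 in the rest of the base and 0.21 in the lid. In differentiation medium they were 0.16, 0.06, -0.05, -0.16 and 0.06. The remaining parts had higher medians in growth medium: 0.36 in the base chaperones, 0.26 in the core assembly factors and 0.22 in activators and PI31. In differentiation medium these had 0.09, 0.18 and 0.18. With its sign kept, the TNF-α difference was lower in differentiation than in growth medium for 35 of 39 genes, some of them larger in size there. The median difference was -0.18, against -0.03 over all genes, of which 7244 of 13652 were below 0. This was not tested.

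Psmd10 was the exception, and the only gene of the set at least 2-fold higher with TNF-α in either medium, where 0.982% and 2.01% of all genes were; 0 of the set were 2-fold lower, against 1.02% and 0.879%. Its signals were 7.94, 9.00 and 8.13 in growth medium and 7.95, 9.01 and 7.92 in differentiation medium (untreated, TNF-α, BTZ). Both TNF-α arrays stood above the 4 others, an order held by 1 of the 39 genes and by 5.15% of all genes, and the difference was 1.06 in both media. The limma effect was 1.06 ± 0.17 (SE) with an adjusted p of 0.22, and 0 of 39 genes passed for TNF-α, 1 of them with an unadjusted p under 0.05; over all genes 0.0806% rose and 0.0146% fell. After quantile normalization Psmd10 was under 2-fold in growth medium. Psma6, Psmg1 and Psmd8 followed in growth medium, each at 0.55, and had 0.07, 0.18 and 0.23 in differentiation medium.

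**Figure D4:**
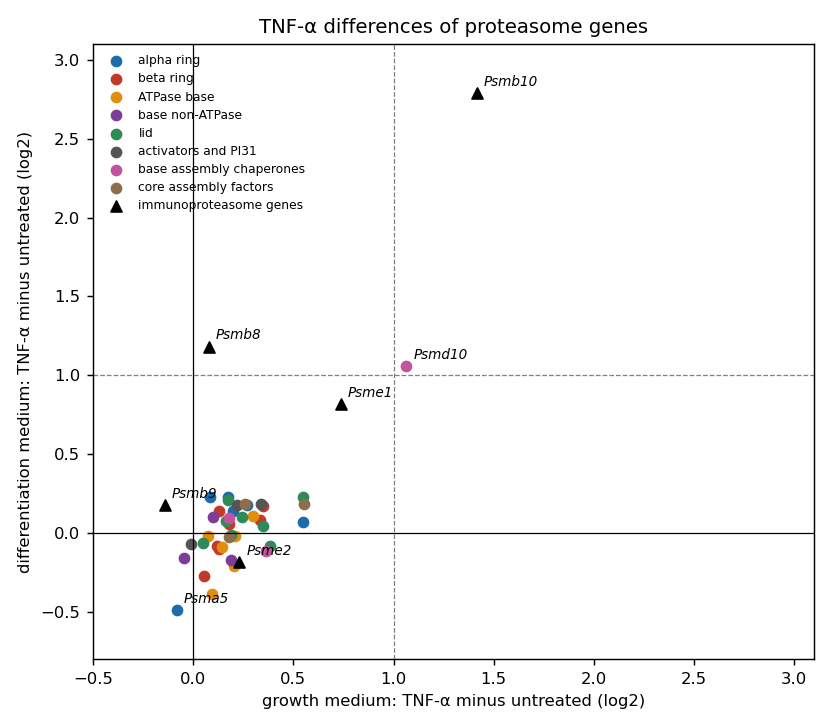
TNF-α minus untreated, growth medium on the horizontal and differentiation medium on the vertical axis (log2), for the 39 genes by part (circles) and 5 immunoproteasome genes (triangles); dashed lines mark 2-fold. Psmd10 at 1.06 on both axes is the one circle past 2-fold, and Psmb10, at 1.41 and 2.79, is the farthest triangle.

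The immunoproteasome genes, which encode the inducible catalytic subunits and the activator PA28, had larger TNF-α differences in some members, although 0 of the 4 above the floor passed for TNF-α in the limma fit (2 had an unadjusted p under 0.05). Psmb10, the inducible counterpart of Psmb7, had signals of 6.98, 8.40 and 6.18 in growth medium and 6.87, 9.66 and 6.48 in differentiation medium (untreated, TNF-α, BTZ). It was highest with TNF-α and lowest with BTZ in both media, with a limma adjusted p of 0.22 for TNF-α. Psmb8, the counterpart of Psmb5, differed with TNF-α by 0.08 and 1.18, Psme1 by 0.74 and 0.82, and Psme2 by 0.23 and -0.19, while Psmb9 was under the floor throughout. With BTZ, 0 of the 4 genes above the floor passed in the limma fit in either direction (0 with an unadjusted p under 0.05), and their medians were 0.23 in growth and -0.26 in differentiation medium.

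Other proteasome-associated genes were split in their BTZ values. Of 8 above the floor 2 rose and 0 fell, against 7.31% and 6.85% of all genes. The deubiquitinase Usp14 rose by 1.28 ± 0.22 (limma adjusted p = 0.0235) and the scaffold Ecpas, which ties core and cap together, by 1.26 ± 0.17 (0.015), both with SE. The second deubiquitinase of the cap, Uchl5, had differences of -0.22 and -0.30, and the small lid subunit Sem1 -0.08 and 0.08. The thioredoxin-like protein Txnl1 had 0.36 and 1.06 and did not pass. Psma8 and Psmb11, subunits of testis and thymus, were under the floor on all arrays, and Psma4 and Adrm1 had no single-symbol probe set.

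Of 13 genes above the floor for NRF1 and its processing, 4 rose with BTZ and 0 fell in the limma fit, against 7.31% and 6.85% of all genes. Their median differences were 0.51 and 0.40. Nfe2l1, which encodes NRF1, had signals of 8.23 and 8.44 without and with BTZ in growth medium and 9.20 and 8.83 in differentiation medium. Its differences of 0.21 and -0.37 had opposite signs, and the limma adjusted p was 0.86. NRF1 is extracted from the endoplasmic reticulum by VCP with its adaptors: Ufd1 rose by 1.88 ± 0.17 (SE, limma adjusted p = 0.00959) and Nploc4 by 1.26 ± 0.17 (SE, 0.0147), while Vcp itself had 0.15 and 0.15. Of the small Maf genes, whose products pair with NRF1 on DNA, Mafk rose by 1.73 ± 0.24 (SE, limma adjusted p = 0.0159) and Mafg by 1.17 ± 0.20 (SE, 0.0231). Maff had 1.07 and 0.21 and did not pass (limma adjusted p = 0.15). The deglycosylase Ngly1, which processes NRF1, had -0.26 and -0.18, and Nfe2l2, which encodes NRF2, had 0.01 and -0.04. Ogt had -0.21 and -1.25, the 1 gene of this list at least 2-fold lower in differentiation medium. It did not pass (limma adjusted p = 0.147).

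Of 7 genes above the floor for ubiquitin shuttle receptors and related factors, 3 rose with BTZ and 0 fell, against 7.31% and 6.85% of all genes. Zfand2a, a proteasome-associated zinc finger gene, had 8.71 and 10.86 in growth medium and 8.90 and 11.16 in differentiation medium, untreated and with BTZ. Its differences of 2.14 and 2.26 were above those of every gene of the set. Its relative Zfand5 rose by 1.11 ± 0.17 (SE, limma adjusted p = 0.0188) and the shuttle receptor Ubqln1 by 1.06 ± 0.23 (SE, 0.0363). The shuttle Rad23b had 0.37 and 0.82 and did not pass at 0.0821.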

How the data were processed

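The deposited values are 1 log2 signal per probe set and array for 6 arrays; the unit was inferred from their range of 1.66 to 14.06, and no source used here says how the authors summarized or normalized them. Per the labels' protocols, total RNA was extracted with TRIzol, purified, amplified and end-labelled with biotin for whole-transcript arrays. No further scaling was applied. Of 41345 probe sets, 23521 had 1 gene symbol in the platform annotation, 1814 had several and 16010 were not annotated; the last 2 kinds were not used. The 42 probe sets of the 39 genes all matched RefSeq's gene table by Entrez number, with 0 symbols differing. A gene's value is the mean of its probe sets, and the floor is the median of all values. Medium and treatment were modelled additively in R 4.3.3 by limma 3.58.1, with eBayes allowing a mean-variance trend; p-values were adjusted by Benjamini-Hochberg over all 13652 genes and called at 0.05. The fit was checked on simulated data. The number of arrays limits the precision of every value. Genes and lists were chosen with earlier results of these data known. Values were named for the highest and lowest gene of each part by mean BTZ difference, the catalytic subunits, genes past 2-fold, under the floor or with over 1 probe set, the 3 largest differences between media, and the 4 largest of each other list, with the immunoproteasome and NRF1 lists named freely; further genes named were chosen after their values were seen. Alternatives were 2 scalings, the probe set with the highest mean, no floor or one at the 75th percentile, a 1.5-fold threshold, eBayes without trend, each array left out, and the 4 untreated and BTZ arrays alone.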

Additional observations from a re-analysis of the deposited data

Results flagged for a closer look

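Psmc6, an ATPase of the base, had TNF-α differences of opposite sign in the 2 media, 0.21 in growth and -0.21 in differentiation medium, a difference of -0.41. Of the genes of the set with opposite signs in the 2 media, it was the one for which both differences were larger in size than the median residual SD of the additive fit over all genes, 0.18. The difference between media was not tested, since each group is 1 array.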

How the results depend on the processing

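No paired analysis was possible because each group had 1 array, all with the replicate number 1. The set's medians in the 5 comparisons, and the medians of the difference between media, moved by less than 0.19, the median residual SD of the 39 genes. This held under both scalings, the other probe set choice and, for the 5 comparisons, both other floors. Some medians of single parts moved further. With the highest probe set, the BTZ median of the alpha ring in differentiation medium went from 1.14 to 1.33. That of the core assembly factors in growth medium went from -0.29 to -0.61, and to 0.09 with the floor at the 75th percentile. Quantile normalization left 5 genes at least 2-fold higher with BTZ in growth medium and 0 with TNF-α in growth medium. At 1.5-fold, 28 genes were higher and 1 lower with BTZ in growth medium (14.7% and 13.7% of all genes), and 4 were lower in untreated differentiation medium (9.89%). In the additive fit, 22 to 28 of the 39 genes were called higher with BTZ when all arrays, or only the untreated and BTZ arrays, were kept. The share of all genes was 3.32% to 7.53% in these settings. The floor at the 75th percentile was apart, with 29 of 36 genes tested and 13.8% of all genes. Leaving out 1 array gave 0 to 33 for BTZ, 0 to 1 for higher with TNF-α (0% to 1.01% of all genes) and 0 to 11 for lower in differentiation medium (0% to 11.6%); such fits have 1 residual degree of freedom. Counts of all genes called moved in the same fits, from 0 to 1881 for higher with BTZ. With the highest probe set, Psma5 had BTZ differences of 1.64 and 1.83 and Psmg2 had -0.69 and -0.41. The median size of the gap between media, added after seeing the data, was 0.24 to 0.26 untreated and 0.09 to 0.11 with BTZ. Depth does not apply to arrays. Psma5 was the only gene of the set with arrays under the floor, namely those without BTZ.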
